A study of Mus musculus with 15 samples.

Results

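Blood vessels run through skeletal muscle as a small part of its mass, and 34 of the 22798 genes counted in these muscles were followed here because they are known to belong to vessels. They were taken by their symbols, with earlier results of these data already known. There are 20 genes of endothelial cells, 4 secreted factors that act on endothelium, 5 genes of pericytes and 5 of vascular smooth muscle. All 34 had a row, and all 34 passed the filter on low counts, as did 17975 genes in all. The 24 endothelial and angiogenic genes are reported apart from the 10 mural genes, the name that pericytes and smooth muscle cells share because both wrap the vessel wall.

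The RNA came from skeletal muscle of C57BL/6 mice aged 12 months, kept on a normal diet and deprived of food for a night. The 15 libraries comprise 6 of sedentary mice described as wild type, 6 of exercised mice, and 3 whose labels read CD47-KO or CD47-/-. CD47 is a membrane receptor for thrombospondin 1, and the series' title concerns a blocking antibody to it, which none of these groups is labelled as having received. The muscle, the exercise programme, the genotype of the exercised mice beyond their strain and the activity of the CD47-KO mice are not stated in the sources used here. Nor do the labels say that each library is a separate animal, so p-values measure the spread between libraries, which may be technical.

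Endothelial cells line every vessel, hold each other through junction proteins and read growth factors of the VEGF and angiopoietin families through receptor kinases. Muscle fibres release VEGF, mural cells release angiopoietin 1, and pericytes and smooth muscle cells in turn steady the capillary or set the width of the arteriole. Muscle is among the tissues whose capillaries are known to respond to training.

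Depth was high in every library, at 50928458 to 84364189 counts. Levels below are in CPM, the count scaled to a common library size after TMM scaling, and a fold change is a log2 value with its standard error (SE). An adjusted p is edgeR's quasi-likelihood p after Benjamini-Hochberg adjustment over all genes kept in the fit, 17975 in the main one. A gene is called where the adjusted p is under 0.05. In the libraries labelled CD47-KO, Cd47 itself stood at 11.5, 12.1 and 12.1 CPM, inside the 11.4 to 16.4 CPM of the sedentary libraries (log2 fold change -0.26, SE 0.17, adjusted p = 0.295). Whether the counted reads cover the deleted part of the gene is not given, so these are called the libraries labelled CD47-KO throughout. They also stood apart in base composition: over 17941 genes, the fold change against sedentary followed the GC content of the transcript with a Spearman rho of -0.56. The deposited counts differed too: among values of 1 to 15, 32.1 to 33.6% were divisible by 4 in these 3 libraries and 41.7 to 50.2% in the other 12, with no overlap, and the part of this in the results was not tested. Each call in these libraries is given with its value after a correction for GC content, which removes every difference that follows GC content whatever its source.

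The markers of the labelled tissue and of its vessels were present. Markers of muscle fibres summed to 96317 CPM or more in every library, and of the 7 endothelial, 6 pericyte and 5 smooth muscle markers checked none was at 0 throughout. In bulk muscle, fewer cells of a type and less RNA per cell cannot be told apart.

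Per kilobase of transcript, the mean levels of the 34 genes in the sedentary libraries spanned a wide range. The fatty acid carrier Fabp4 led at 218 CPM per kb, well ahead of the growth factor Vegfb at 67.0 and of Gpihbp1, which carries lipoprotein lipase to the capillary surface, at 28.5. Fabp4 is also made by fat cells, whose 6 markers summed to 0.537 to 60.5 CPM in the sedentary and exercise libraries. The actin of smooth muscle, Acta2, came next at 26.1 CPM per kb, followed by the junction protein Pecam1 at 23.8 and the pericyte G protein regulator Rgs5 at 21.6. At the other end stood the apelin receptor Aplnr at 0.799, Angpt2 at 0.671, the contractile protein Cnn1 at 0.662 and Angpt1 at 0.590 CPM per kb. The receptor kinases of the endothelium lay between, with Flt1 at 10.1, Tie1 at 8.99, Kdr at 6.14 and Tek at 2.83 CPM per kb.

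**Figure D1:**
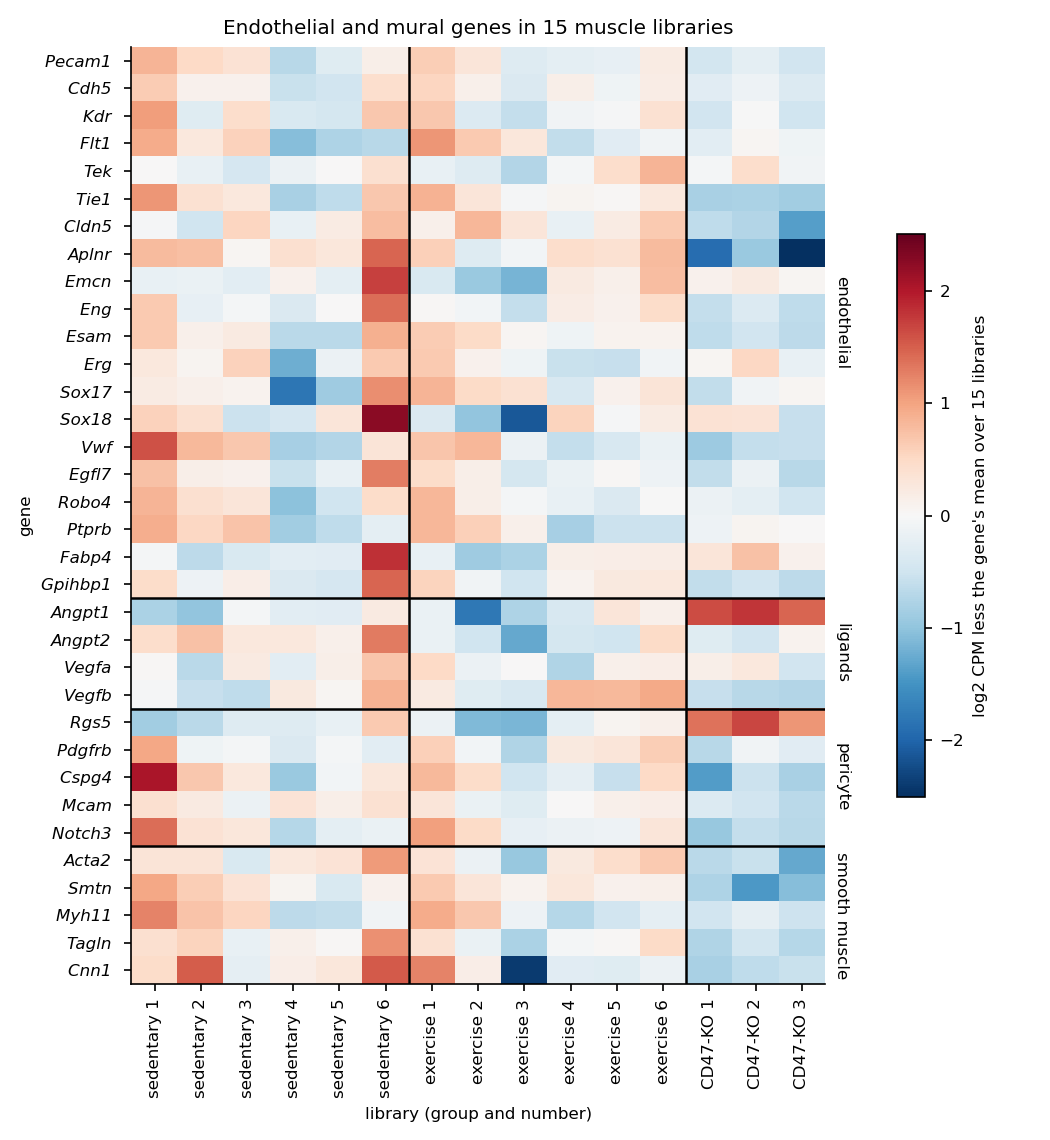
Level of each of the 34 genes (rows, in 4 classes) in each of the 15 libraries (columns), as log2 CPM less the gene's mean over all libraries, red above and blue below. Sedentary libraries 1 and 6 and exercise library 1 are red across most rows, exercise library 3 is mostly blue, and in the CD47-KO columns Angpt1 and Rgs5 are red while the smooth muscle rows are blue.

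Some libraries were high or low for many of the genes at once. Sedentary library 6 held the highest sedentary level of 20 of the 34 genes and sedentary library 1 that of the other 14, while library 4 was lowest for 16. Among the exercise libraries, number 1 was highest for 19 genes and number 3 lowest for 20. Of the libraries labelled CD47-KO, number 2 was highest for 24 genes and number 3 lowest for 23. The 20 endothelial genes summed to 480.4 to 1401 CPM in the sedentary libraries, 569 to 988 in the exercise libraries and 581 to 743 in those labelled CD47-KO, so these summed ranges overlap. The summed pericyte genes separated the libraries labelled CD47-KO, at 259 to 367 CPM, from the rest, at 220.2 CPM or less, and the summed smooth muscle genes did so downward.

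Exercise against sedentary gave no called change in any of the 34 genes. Of the 24 endothelial and angiogenic genes 0 were called and of the 10 mural genes 0, and the share of all genes called was also 0.00%. At an unadjusted p under 0.05 there was 1 of the 34 (3.70% of all genes), and DESeq2 called 0 of the 34 (0.0440% of all genes it tested). In 0 of the 34 did the exercise libraries lie wholly above the sedentary ones (0.100% of all genes) or wholly below them (0.0612%). The median log2 fold change was -0.16 over the 20 endothelial genes, -0.03 over the 4 secreted factors, -0.12 over the 5 pericyte genes and -0.22 over the 5 smooth muscle genes, against -0.03 over all genes. In all, 8 of 34 lay above 0, against 46.1% of all genes. Without sedentary libraries 1 and 6, the median became 0.19 for the endothelial and angiogenic genes and 0.03 for the mural genes. These libraries were picked as the highest for these genes, and no exercise library was left out with them. An upward shift was therefore built into the choice, so the change of sign is no test of direction.

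The single gene with an unadjusted p under 0.05 was Angpt2, the angiopoietin that endothelium itself makes and that loosens the contact between endothelium and pericytes. Its level was 1.75 CPM at the lowest, 2.04 at the median and 3.94 at the highest in the sedentary libraries, and 0.662, 1.15 and 2.23 CPM in the exercise libraries. The groups overlapped, since exercise library 6 lay above the sedentary median. The fold change was -0.89 on the log2 scale (SE 0.29, adjusted p = 1), and it stayed between -1.12 and -0.68 under all 23 alternatives. Sox18, a transcription factor of vessel and lymphatic development, had the lowest fold change of the 34, -1.01 (SE 0.48, adjusted p = 1). Here sedentary library 6 stood at 39.9 CPM and the other 5 at 5.76 to 12.4, and without library 6 the value was -0.38.

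Vegfa and Vegfb, the ligands of the VEGF receptors, did not separate the groups either. Vegfa stood at 43.1, 73.2 and 110.3 CPM (lowest, median, highest) in sedentary and 40.8, 72.0 and 97.3 CPM in exercise libraries, with a log2 fold change of -0.05 (SE 0.23, adjusted p = 1). Vegfb stood at 52.2, 82.0 and 148 CPM in sedentary and 61.4, 119 and 157 CPM in exercise libraries, with 0.38 (SE 0.28, adjusted p = 1). Their receptors Kdr and Flt1 had log2 fold changes of -0.22 (SE 0.28) and 0.23 (SE 0.35), neither of them called. Over the 34 genes the SE ran from 0.14 for the adhesion molecule Mcam to 0.48 for Sox18, so a modest change in most of them would not have been detectable here.

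**Figure D2:**
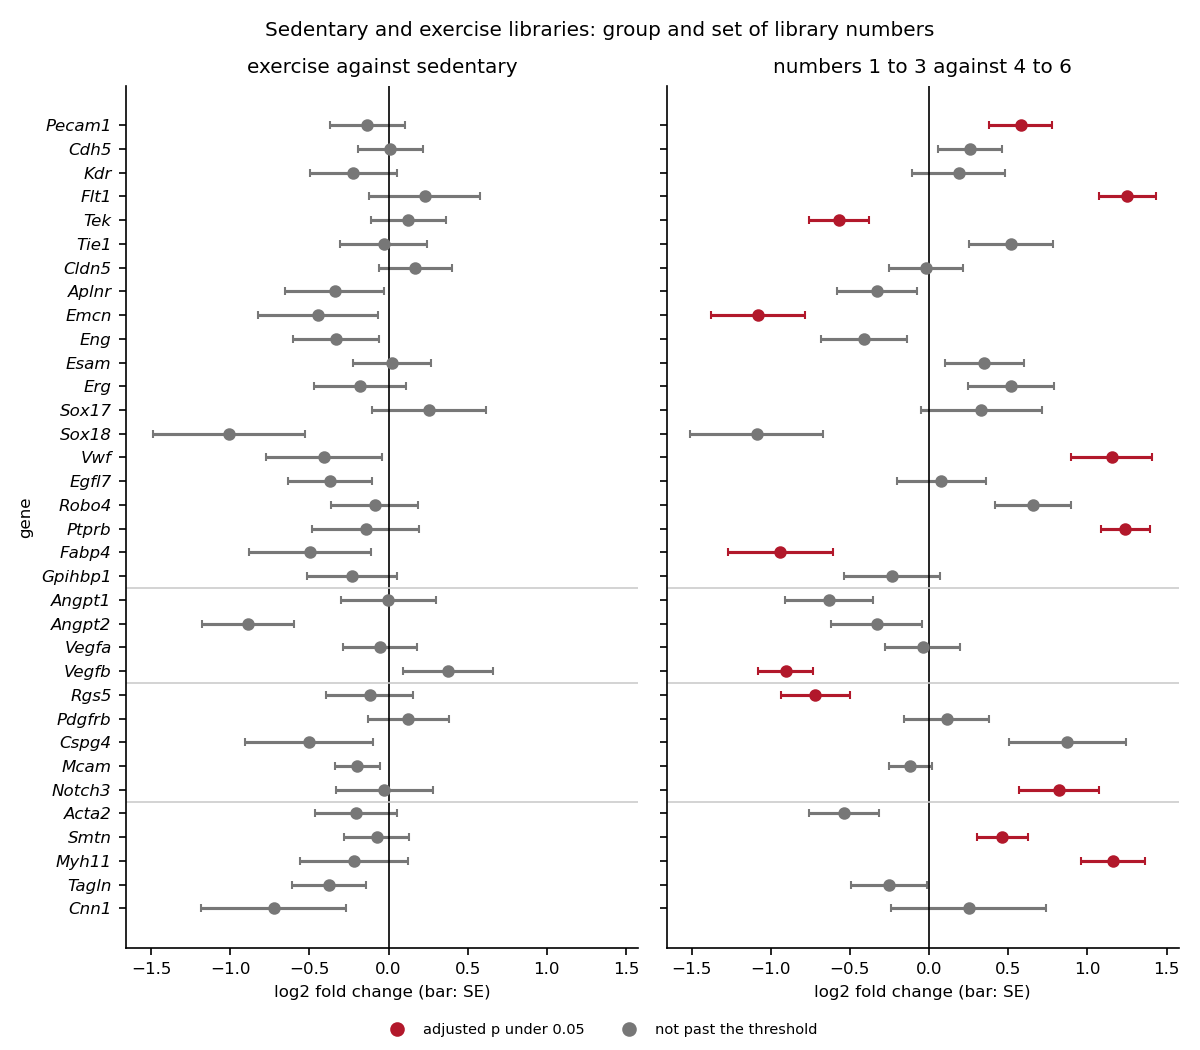
Log2 fold change (point) and its SE (bar) of each gene for exercise against sedentary (left) and for library numbers 1 to 3 against 4 to 6 over both groups (right), red where the adjusted p is under 0.05. No gene is red on the left, and 12 are red on the right.

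The larger division among these 12 libraries was by number. Numbers 1 to 3 and numbers 4 to 6 of both groups formed 2 sets in the data, which the labels do not name as a batch. This split was first seen in these same data, so the counts and p-values here describe it and are no independent test of it. In a fit with group and set, 12 of the 34 genes were called between the sets, near the 31.5% of all genes called. The fits with a term for set kept 15571 genes, over which their shares and adjusted p-values were taken. Exercise against sedentary above had no term for set. Within 1 group alone the sets differed in fewer genes, and least among sedentary libraries. There 1 of the 34 was called (225 genes in all), and among exercise libraries 8 were (3481 genes in all). Ptprb, a phosphatase that restrains the Tek receptor, stood at 66.2 to 114 CPM in numbers 1 to 3 and at 33.1 to 51.4 CPM in numbers 4 to 6, with no overlap (log2 fold change 1.24, SE 0.15, adjusted p = 0.000151). Flt1, the VEGF receptor that binds ligand with little signalling, likewise did not overlap, at 79.9 to 143 CPM against 31.7 to 62.3 CPM (1.25, SE 0.18, adjusted p = 0.000358). The clotting factor carrier Vwf and the smooth muscle myosin Myh11 were also higher in numbers 1 to 3, by 1.15 (SE 0.26, adjusted p = 0.00487) and 1.16 (SE 0.20, adjusted p = 0.00111). Lower there were the capillary and venous sialomucin Emcn at -1.08 (SE 0.30, adjusted p = 0.0153), Vegfb at -0.91 (SE 0.18, adjusted p = 0.00224) and Rgs5 at -0.72 (SE 0.22, adjusted p = 0.0232). Fabp4 and Tek were the other 2 called lower, and Pecam1, Notch3 and Smtn the other 3 called higher. The effect of exercise did not differ detectably between the sets: 0 of 34 genes were called by edgeR for that difference (0.00% of all genes), and 0 of 34 had an unadjusted p under 0.05 (4.58% of all genes).

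Compared with sedentary, the CD47-KO-labelled libraries had 3 endothelial genes lower, Aplnr, Cldn5 and Tie1, and 1 secreted factor higher, Angpt1. That is 4 of the 24 endothelial and angiogenic genes called (1 higher, 3 lower), or 16.7%, while 20.7% of all genes were called (11.9% higher, 8.75% lower), so the share is near the background. The median log2 fold change of the 24 was -0.61 against -0.11 over all genes, and 20 of them lay below 0. Without sedentary libraries 1 and 6, picked as the highest so that a rise was built in, that median was -0.16 (0.01 over all genes). Against numbers 4 to 6 alone it was -0.33 (0.11 over all genes), and with GC correction -0.40 (-0.09 over all genes). DESeq2 called 7 of the 24 against sedentary, where it called 28.2% of the genes it tested, and 5 of 24 against exercise, where it called 26.9%. Against exercise, the same 4 genes were called in the same directions together with Vegfb, lower, making 5 of 24, where 20.6% of all genes were called (12.2% higher, 8.34% lower). Both comparisons use the same 3 libraries labelled CD47-KO, so their values stand side by side and are not independent.

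Aplnr encodes the receptor for apelin, a peptide that widens vessels and guides vessel growth, and lies on chromosome 2 (GRCm38, chr2:85136225-85139923). It stood at 0.485, 0.963 and 0.279 CPM in the 3 libraries labelled CD47-KO, from 38, 84 and 24 counts. The lowest, median and highest levels were 1.89, 2.75 and 4.99 CPM in sedentary and 1.47, 2.43 and 3.16 CPM in exercise libraries. All 3 values lay below every other library. Its fold change on the log2 scale was -2.35 (SE 0.43, adjusted p = 0.00125) against sedentary and -2.01 (SE 0.42, adjusted p = 0.00303) against exercise. After GC correction it was -2.26 (adjusted p = 0.00578) and -1.87 (adjusted p = 0.0139), and Aplnr was the single one of the 24 genes still called in each comparison. The share of all genes called after correction was 7.87% against sedentary (3.88% higher, 3.98% lower) and 7.99% against exercise (4.10% higher, 3.89% lower). The calls held in all 9 fits that left out a library in either comparison.

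Cldn5 encodes the main claudin of endothelial tight junctions (chr16:18776847-18778262). Its level was 6.09, 5.68 and 3.64 CPM in the libraries labelled CD47-KO, against 6.75, 10.1 and 16.1 CPM (lowest, median, highest) in sedentary and 8.32, 11.4 and 16.9 CPM in exercise libraries. The 3 values lay below all of the others. Relative to the other groups it was -1.08 (SE 0.30, adjusted p = 0.0173) against sedentary and -1.25 (SE 0.30, adjusted p = 0.0074) against exercise. It became -0.56 (adjusted p = 0.273) and -0.77 (adjusted p = 0.121) after GC correction, its transcript being 60.5% GC. Without CD47-KO library 3 the adjusted p was 0.124 and 0.0659.

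Tie1 is an orphan receptor kinase that pairs with the angiopoietin receptor Tek (chr4:118471191-118490061). It stood at 17.4, 17.8 and 16.7 CPM in the libraries labelled CD47-KO, at 17.4, 38.4 and 65.4 CPM (lowest, median, highest) in sedentary and at 29.9, 34.5 and 55.7 CPM in exercise libraries. The range touched the lowest sedentary library, number 4, and lay below every exercise library. Its log2 fold change was -1.14 (SE 0.35, adjusted p = 0.0316) against sedentary and -1.11 (SE 0.35, adjusted p = 0.0356) against exercise, and -0.59 (adjusted p = 0.229) and -0.62 (adjusted p = 0.201) after GC correction. The call against sedentary was lost in 5 of 9 fits that left out a library, without sedentary number 2 or 6 or any library labelled CD47-KO. Against exercise it was lost in 8 of 9, all but the fit without exercise number 3, with adjusted p up to 0.127 and 0.14. Against numbers 4 to 6 alone neither call held, at -0.68 (adjusted p = 0.168) for sedentary and -0.90 (adjusted p = 0.0783) for exercise, while against numbers 1 to 3 alone they were -1.39 (adjusted p = 0.00378) and -1.16 (adjusted p = 0.00895). Without sedentary libraries 1 and 6, whose removal as the highest built in a weaker value, it was -0.69 against sedentary and not called. Tek itself did not move detectably, with 0.15 (SE 0.29, adjusted p = 0.766) against sedentary.

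The other 17 endothelial genes did not pass the threshold in either comparison. Against sedentary, those lowest in fold change were Vwf at -1.23 (SE 0.48, adjusted p = 0.0782), Gpihbp1 at -0.94 (SE 0.36, adjusted p = 0.077) and the TGF-beta co-receptor Eng at -0.91 (SE 0.35, adjusted p = 0.0737). Gpihbp1 stood at 24.02, 26.3 and 23.3 CPM in the libraries labelled CD47-KO and at 27.4 CPM or more in each sedentary library, so these groups did not overlap. The defining junction gene Cdh5 had -0.35 (SE 0.26, adjusted p = 0.376) and the VEGF receptor Kdr -0.60 (SE 0.35, adjusted p = 0.249). Pecam1 had -0.62 (SE 0.30, adjusted p = 0.155). The transcription factor Erg stood near 0, at 0.02 (SE 0.35, adjusted p = 0.981).

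The 4 secreted factors went different ways. Angpt1, the mural ligand that activates Tek and keeps vessels quiet (chr15:42424723-42676977), stood at 9.57, 10.7 and 8.46 CPM in the libraries labelled CD47-KO. Sedentary libraries held 1.56, 2.57 and 3.62 CPM (lowest, median, highest) and exercise libraries 0.896, 2.54 and 3.85 CPM. All 3 lay above every other library by a wide gap. On the log2 scale the difference was 1.93 (SE 0.35, adjusted p = 0.00109) against sedentary and 1.93 (SE 0.35, adjusted p = 0.000965) against exercise, and it was called in all 9 fits that left out a library. After GC correction it was 0.44 (adjusted p = 0.423) and 0.37 (adjusted p = 0.525). Its transcript has the lowest GC content of the 34, 39.3%.

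Angpt2, the counterpart of Angpt1 at the same receptor, stood at 1.29, 1.15 and 1.70 CPM, below every sedentary library. Its log2 fold change of -0.79 (SE 0.37, adjusted p = 0.139) was not called, and against exercise it was 0.09 (SE 0.35, adjusted p = 0.891). Vegfb, a VEGF family member abundant in muscle (chr19:6982473-6987651), stood at 54.8, 50.7 and 48.9 CPM, overlapping the lowest sedentary libraries and below all exercise libraries. It was -0.74 (SE 0.36, adjusted p = 0.16) against sedentary and -1.11 (SE 0.36, adjusted p = 0.0394) against exercise, the second of these called. The calls differed by set of numbers. Against numbers 1 to 3 alone it was -0.20 (adjusted p = 0.511) for sedentary and -0.43 (adjusted p = 0.151) for exercise. Against numbers 4 to 6 alone it was -1.04 (adjusted p = 0.00731) and -1.48 (adjusted p = 0.00121), both called. With GC correction the value against all exercise libraries became -0.68 (adjusted p = 0.325). That call against exercise was lost in 6 of 9 fits that left out a library, with adjusted p up to 0.15. These were the fits without exercise number 4, 5 or 6 or any library labelled CD47-KO. Vegfa, at 75.7, 82.1 and 49.0 CPM, stayed within the sedentary range, with -0.08 (SE 0.29, adjusted p = 0.887).

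**Figure D3:**
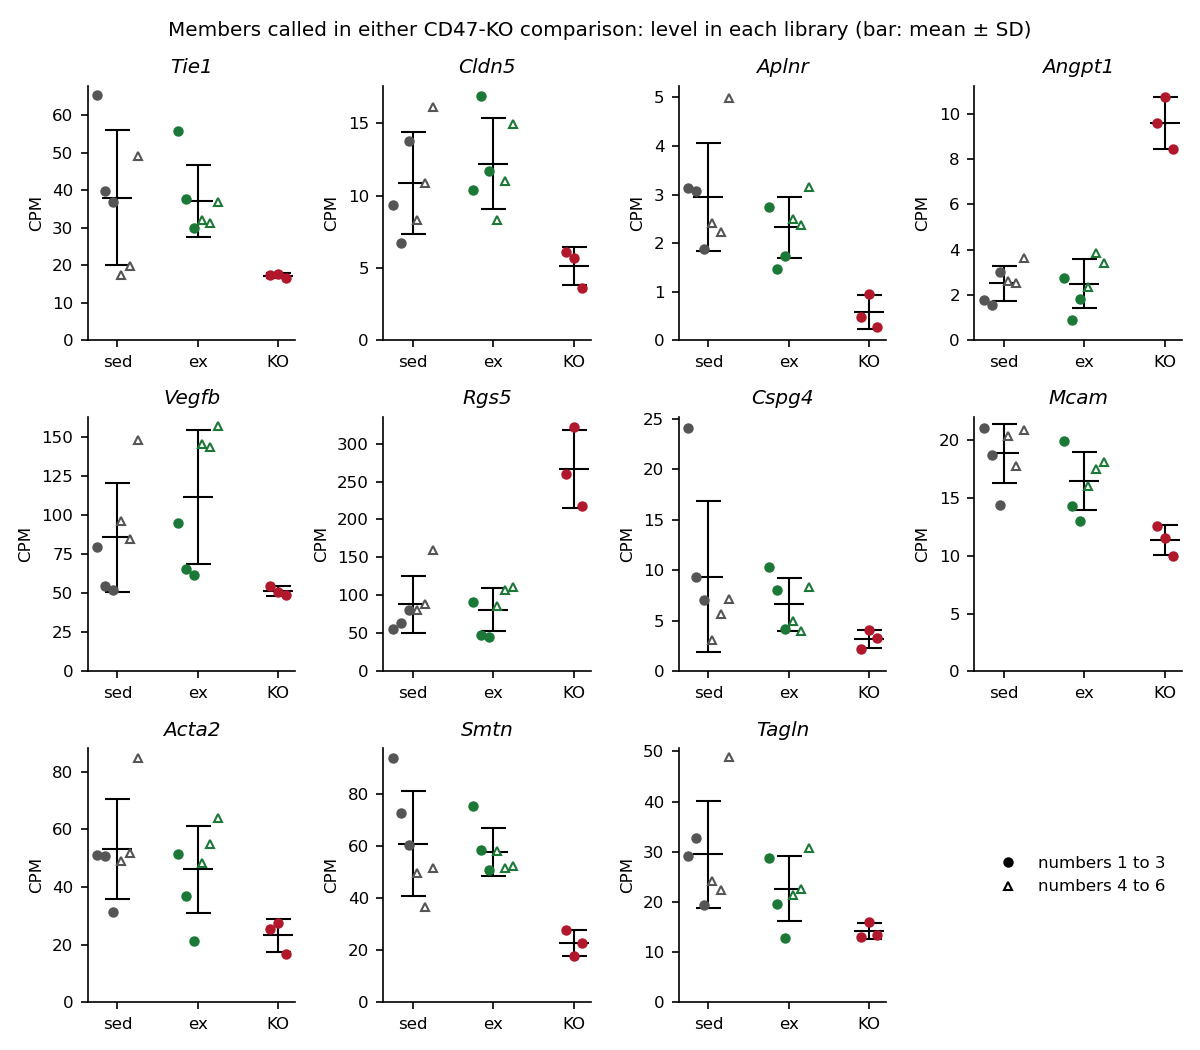
CPM in each library of the 11 genes called in either CD47-KO comparison, by group (sed, sedentary; ex, exercise; KO, labelled CD47-KO), with filled circles for library numbers 1 to 3, open triangles for 4 to 6, and bars for the mean ± SD. The CD47-KO points of Angpt1 and Rgs5 lie above all others, and those of Aplnr, Cldn5, Mcam and Smtn lie below all others.

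Of the 10 mural genes, 6 were called against sedentary, Rgs5 higher and Cspg4, Mcam, Acta2, Smtn and Tagln lower. The 1 higher is near the background for that direction, while the 5 lower, or 50%, compare with 8.75% of all genes lower. The median of the 10 was -1.05, against -0.11 over all genes, and 9 lay below 0. Against exercise 4 were called, Rgs5 higher and Mcam, Acta2 and Smtn lower, where 20.6% of all genes were called (12.2% higher, 8.34% lower), and the median was -0.69 against -0.08 over all genes. After GC correction 2 were still called against sedentary, Acta2 and Smtn, both lower, where 7.87% of all genes were called and 3.98% were lower. The single call left against exercise, Smtn, was 1 of 10, where 7.99% of all genes were called and 3.89% were lower. A single gene is near the background by either share. With the correction the median was -0.63 against sedentary (-0.09 over all genes) and -0.42 against exercise (-0.06 over all genes). Against sedentary numbers 4 to 6 alone it was -0.70 (0.11 over all genes).

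**Figure D4:**
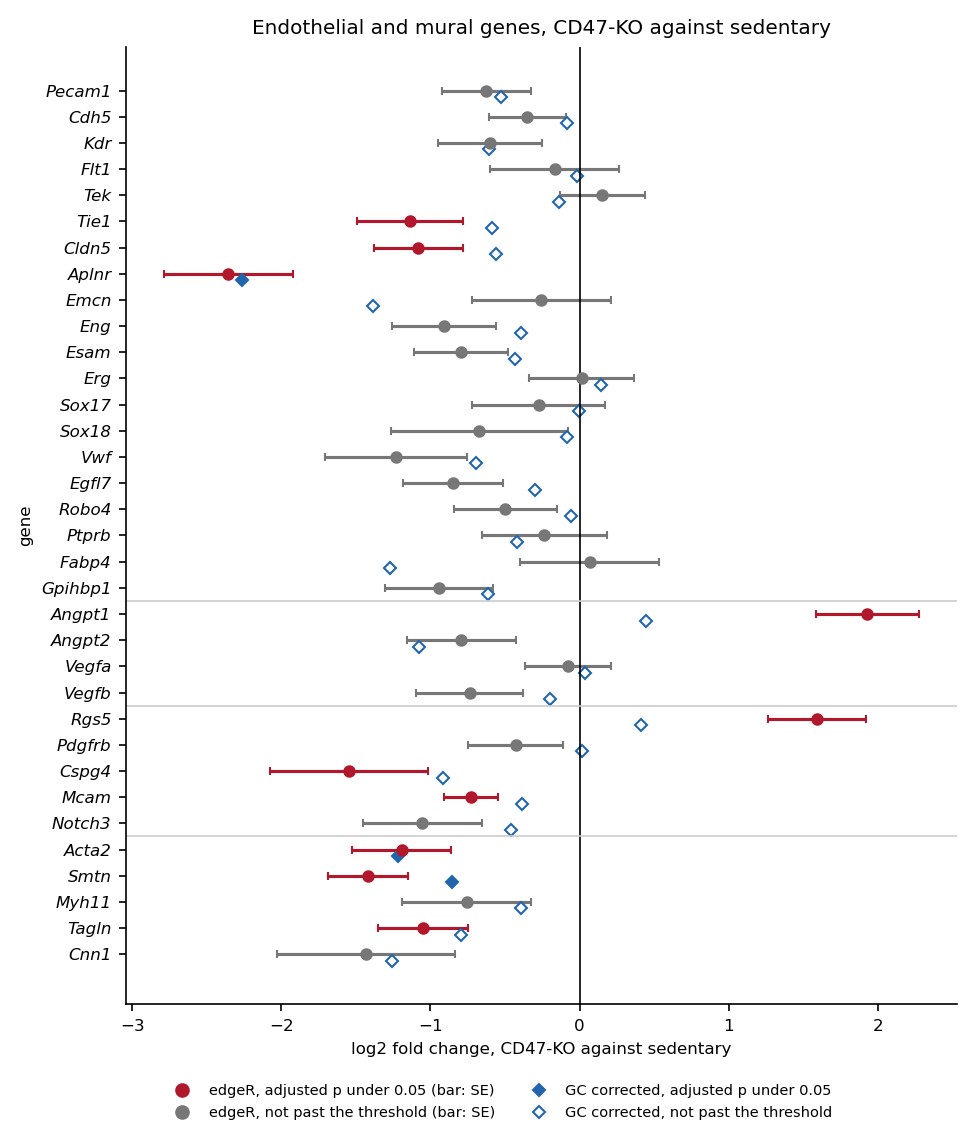
Log2 fold change of each gene in the libraries labelled CD47-KO against sedentary (circle, with SE bar, red where called) and its value after GC correction (diamond, filled where called), with lines between endothelial genes, secreted factors, pericyte genes and smooth muscle genes. Angpt1 and Rgs5 are the red circles to the right, and their open diamonds lie near 0.4, while the smooth muscle genes lie left of 0 in both fits.

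Rgs5, which damps G protein signals and marks pericytes (chr1:169655501-169695813), moved against the other mural genes. It stood at 260.3, 321 and 218 CPM in the libraries labelled CD47-KO, against 55.3, 81.2 and 160.1 CPM (lowest, median, highest) in sedentary and 45.9, 88.4 and 111 CPM in exercise libraries. The lowest of the 3 exceeded sedentary library 6, the highest of the rest. On the log2 scale Rgs5 was higher by 1.59 (SE 0.33, adjusted p = 0.00276) against sedentary and 1.71 (SE 0.33, adjusted p = 0.00152) against exercise, called in all 9 fits that left out a library. After GC correction it was 0.41 (adjusted p = 0.478) and 0.46 (adjusted p = 0.408), at a transcript GC content of 41.1%. With Rgs5 among them, the 5 pericyte genes summed to 307 ± 55.0 CPM (SD, n = 3) in the libraries labelled CD47-KO against 159 ± 35.5 (SD, n = 6) in sedentary and 149 ± 40.8 (SD, n = 6) in exercise libraries. The other 4 summed the other way, to 40.9 ± 4.94 CPM (SD, n = 3), against 71.0 ± 29.035 (SD, n = 6) in sedentary and 67.5 ± 17.6 (SD, n = 6) in exercise libraries.

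The other pericyte genes were lower or not called. Mcam, an adhesion molecule that pericytes share with endothelium (chr9:44134469-44142727), stood at 12.6, 11.6 and 10.002 CPM, below all sedentary (14.4 to 21.1 CPM) and all exercise libraries (13.0 to 19.9 CPM). Its log2 fold change was -0.73 (SE 0.18, adjusted p = 0.0097) against sedentary and -0.53 (SE 0.18, adjusted p = 0.0463) against exercise, and -0.38 (adjusted p = 0.234) and -0.17 (adjusted p = 0.665) after GC correction. Without CD47-KO library 3 the adjusted p was 0.0875 and 0.258. Against numbers 1 to 3 alone neither was called, at -0.59 (adjusted p = 0.0513) and -0.38 (adjusted p = 0.199). Against exercise the call was lost in 8 of 9 such fits, all but the one without exercise number 3.

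Cspg4, the NG2 proteoglycan of pericytes (chr9:56865033-56899870), stood at 2.25, 4.07 and 3.36 CPM in the libraries labelled CD47-KO, and at 3.10, 7.11 and 24.1 CPM (lowest, median, highest) in sedentary libraries. The groups overlapped at sedentary library 4, and sedentary library 1 lay far above the rest. A fold change of -1.54 on the log2 scale (SE 0.53, adjusted p = 0.0491) was just past the threshold and was lost in 7 of 9 fits that left out a library, all but those without sedentary number 4 or 5, with adjusted p up to 0.202. It was also lost against numbers 4 to 6 alone, at -0.66 (adjusted p = 0.232). Without sedentary libraries 1 and 6, whose removal as the highest built in a weaker value, it was lost at -0.93. After GC correction it was -0.92 (adjusted p = 0.222), and against exercise -1.04 (SE 0.52, adjusted p = 0.172). Notch3, the Notch receptor of mural cells, was -1.05 (SE 0.40, adjusted p = 0.071) and the PDGF receptor Pdgfrb -0.43 (SE 0.32, adjusted p = 0.382), neither of them called.

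All 5 smooth muscle genes lay below 0 in both comparisons, and 3 were called against sedentary and 2 against exercise, where 8.75% and 8.34% of all genes were called lower. Summed, they reached 86.8 ± 7.99 CPM (SD, n = 3) in the libraries labelled CD47-KO, 189 ± 48.6 (SD, n = 6) in sedentary and 165 ± 35.4 (SD, n = 6) in exercise libraries. The summed range of 77.6 to 91.5 CPM lay below the lowest sedentary library, at 135, and the lowest exercise library, at 116. Against sedentary, 4 of the 5 genes did not overlap, where 10.3% of all genes lay wholly below. Against exercise 1 of the 5 did not, Smtn, where 14.1% of all genes lay wholly below.

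Smtn encodes smoothelin, an actin-binding protein of contractile smooth muscle (chr11:3517523-3540612). It stood at 27.8, 17.7 and 22.8 CPM in the libraries labelled CD47-KO, against 36.6, 56.1 and 93.8 CPM (lowest, median, highest) in sedentary and 50.8, 55.2 and 75.2 CPM in exercise libraries. All 3 lay below every other library. Smtn changed on the log2 scale by -1.42 (SE 0.27, adjusted p = 0.00156) against sedentary and -1.34 (SE 0.27, adjusted p = 0.00207) against exercise. It was -0.86 (adjusted p = 0.0176) and -0.86 (adjusted p = 0.0156) after GC correction, and was called in all 9 fits that left out a library in each comparison.

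Acta2, the smooth muscle alpha actin of the contractile filament (chr19:34241090-34255590), stood at 25.5, 27.5 and 16.8 CPM. The sedentary libraries held 31.4, 50.9 and 84.8 CPM (lowest, median, highest) and the exercise libraries 21.2, 49.8 and 63.9 CPM, so the values lay below all sedentary libraries and overlapped exercise library 3. Its log2 fold change was -1.19 (SE 0.33, adjusted p = 0.0185) against sedentary and -0.99 (SE 0.33, adjusted p = 0.0437) against exercise. GC correction left the first nearly as it was, at -1.22 (adjusted p = 0.0498), for a transcript of 49.6% GC, and put the second at -0.95 (adjusted p = 0.121). The call against sedentary was lost without CD47-KO library 1 or 3, with adjusted p up to 0.124. Against exercise it was lost in 8 of 9 fits that left out a library, all but the one without exercise number 3, with adjusted p up to 0.228. Against numbers 1 to 3 alone neither was called, at -0.86 (adjusted p = 0.0692) for sedentary and -0.56 (adjusted p = 0.222) for exercise, and against numbers 4 to 6 alone both were, at -1.36 (adjusted p = 0.00531) and -1.21 (adjusted p = 0.00885).

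Tagln, the actin-bundling protein SM22 (chr9:45929619-45936058), stood at 13.1, 16.1 and 13.4 CPM, below the 19.4 to 48.9 CPM of the sedentary libraries and inside the 12.8 to 30.9 CPM of the exercise libraries. It was -1.05 (SE 0.30, adjusted p = 0.021) against sedentary and -0.68 (SE 0.30, adjusted p = 0.121) against exercise. The former became -0.80 (adjusted p = 0.133) after GC correction, and it was lost without CD47-KO library 1 or 3, with adjusted p up to 0.107. It was also lost, at -0.76, without sedentary libraries 1 and 6, whose removal as the highest built in a weaker value. Cnn1, calponin, a brake on actomyosin, stood at 0.523, 0.596 and 0.627 CPM, below the sedentary range of 0.792 to 2.65 CPM, and its -1.43 (SE 0.60, adjusted p = 0.101) was not called. Myh11, the smooth muscle myosin heavy chain, stood at 24.6, 29.5 and 23.9 CPM within the sedentary range of 21.7 to 81.4 CPM, at -0.76 (SE 0.43, adjusted p = 0.238).

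Promoters are shown for genes that moved together, and for Rgs5 as the one that moved the other way. RefSeq promoters (GRCm38.p6) were matched for 19 of the 34 genes, and the 250 bases before the start site are printed 5′ to 3′ on the gene's strand. Capitals mark matches to the CArG box, the site of serum response factor that is known from smooth muscle genes, with at most 1 base off, or to AGGAAG, on either strand, a core of ETS factor sites known from endothelial genes. The looser CArG box and AGGAAG were added after stricter searches, for the exact CArG box and for CCGGAAG, found 0 of the 19 genes. Acta2, chr19:34255374-34255623, minus strand, and Smtn, chr11:3539293-3539542, minus strand, are from smooth muscle. Tie1, chr4:118489850-118490099, minus strand, and Cldn5, chr16:18776597-18776846, plus strand, are from endothelium, and Rgs5 is chr1:169655251-169655500, plus strand.
Acta2: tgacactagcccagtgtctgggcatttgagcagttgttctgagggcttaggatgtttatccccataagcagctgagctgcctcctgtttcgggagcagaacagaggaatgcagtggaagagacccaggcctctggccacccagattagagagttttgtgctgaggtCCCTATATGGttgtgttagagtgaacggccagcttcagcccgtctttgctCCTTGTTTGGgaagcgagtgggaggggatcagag
Smtn: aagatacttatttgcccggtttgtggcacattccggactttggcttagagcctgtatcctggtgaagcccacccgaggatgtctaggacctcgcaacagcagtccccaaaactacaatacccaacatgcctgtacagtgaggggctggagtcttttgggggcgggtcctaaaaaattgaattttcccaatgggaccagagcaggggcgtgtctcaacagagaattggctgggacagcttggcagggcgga
Tie1: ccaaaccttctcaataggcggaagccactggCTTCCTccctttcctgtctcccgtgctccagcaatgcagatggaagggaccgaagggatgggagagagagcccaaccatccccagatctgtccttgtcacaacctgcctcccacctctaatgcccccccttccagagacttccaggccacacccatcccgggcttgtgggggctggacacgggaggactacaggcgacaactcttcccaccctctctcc
Cldn5: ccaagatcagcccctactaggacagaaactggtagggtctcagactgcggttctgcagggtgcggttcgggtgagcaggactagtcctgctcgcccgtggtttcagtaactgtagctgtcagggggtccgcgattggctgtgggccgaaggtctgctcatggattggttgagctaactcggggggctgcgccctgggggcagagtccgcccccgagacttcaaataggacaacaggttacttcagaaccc
Rgs5: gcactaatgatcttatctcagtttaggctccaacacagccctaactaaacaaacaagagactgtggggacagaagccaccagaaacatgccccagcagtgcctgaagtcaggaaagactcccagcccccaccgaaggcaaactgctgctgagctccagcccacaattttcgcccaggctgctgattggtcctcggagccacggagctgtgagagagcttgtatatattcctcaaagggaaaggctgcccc

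The Acta2 stretch holds 2 CArG boxes with at most 1 base off, CCCTATATGG and CCTTGTTTGG, and Smtn, Rgs5 and Cldn5 hold none of these letters. The Tie1 stretch holds 1 match to AGGAAG. Over all 32851 promoters of that length, 18.62% hold a CArG box with at most 1 base off, 1.47% an exact one, 29.48% AGGAAG on either strand and 6.91% CCGGAAG. Of the 24 promoters of the 19 matched genes, 7 held the looser CArG box and 8 AGGAAG. The AGGAAG and CCGGAAG letters share GGAAG, and a match here describes the letters of the window and no more. The printed stretches are 53.6% GC for Acta2 and Rgs5, 53.2% for Smtn, 59.6% for Cldn5 and 60.4% for Tie1, so the promoters of Acta2 and Rgs5 have the same GC content although their transcripts do not.

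The relation to GC content ran through the vessel genes as through the rest. Over the 34 genes, transcript GC content and the CD47-KO against sedentary fold change had a Spearman rho of -0.58, against -0.56 over the 17941 genes with a value. Against exercise it was -0.65 and -0.56, and for exercise against sedentary 0.12 and 0.03. These are descriptions across genes, which share libraries and are not independent replicates. The 34 genes were richer in GC, with a median of 52.5% against 50.0%. After the correction the rho over the 34 was 0.03 against sedentary and -0.08 against exercise. The correction also moved the low-GC endothelial genes Fabp4, from 0.07 to -1.27 (adjusted p = 0.113), and Emcn, from -0.25 to -1.38 (adjusted p = 0.0875), neither of them called before or after.

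**Figure D5:**
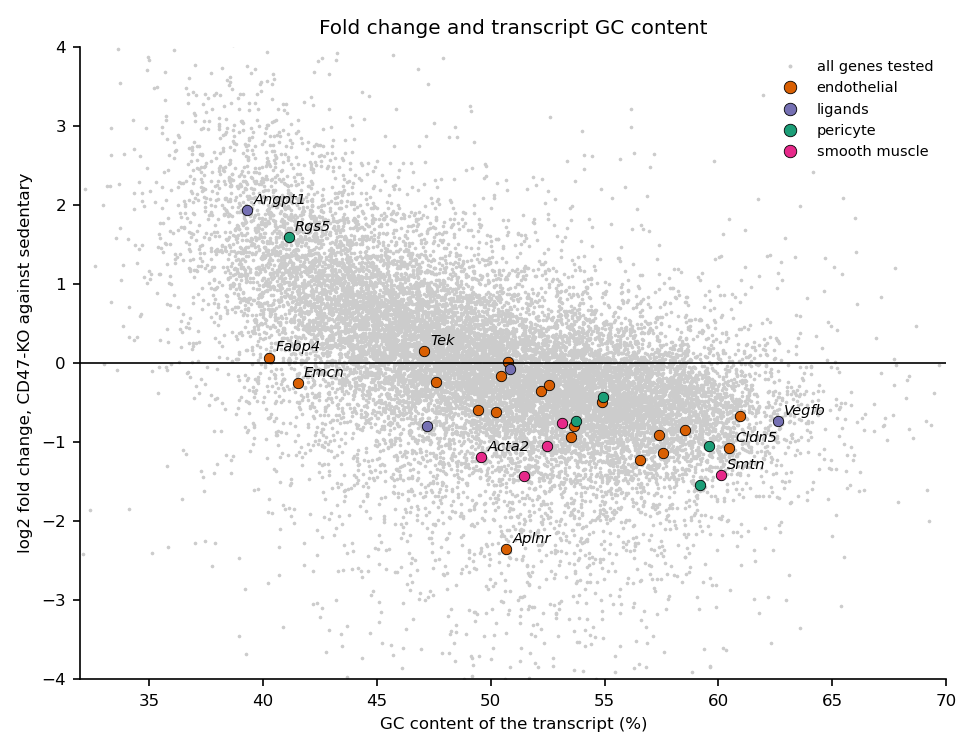
CD47-KO against sedentary log2 fold change (vertical, drawn as far as 4 in either direction) by transcript GC content in percent (horizontal), for all genes tested (grey) and the 34 vessel genes (coloured by class). Angpt1 and Rgs5 sit among grey genes of like GC content, and Aplnr lies below most genes of its own.

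Other features of the CD47-KO-labelled libraries were measured. The mitochondrial share and the marker sums overlapped the other libraries, but not every single marker did. The fibroblast marker Dcn stood at 214 to 263 CPM there and at 139 CPM or less in the rest. The fibre marker Acta1 stood at 16689 to 20032 CPM there and at 31888 CPM or more in the rest. Their share of counts in mitochondrial genes was 18.1 to 19.2%, and in the other 12 libraries it was 4.49 to 18.2%. Muscle fibre markers summed to 96317 to 135890 CPM there and 123130 to 246030 CPM in the rest, and 3 of 8 were called lower against sedentary. Markers of blood summed to 173 to 284 CPM, against 215 to 1235 CPM elsewhere, and fibroblast markers to 291 to 344 CPM, against 125 to 621 CPM. None of these markers was at 0 throughout, and their part in the vessel gene results was not tested.

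The neighbours of these genes were counted from lists chosen for cell type or pathway, with earlier results of these data already known. Of 37 further endothelial genes tested out of 38 listed, 4 were called higher and 7 lower in the libraries labelled CD47-KO against sedentary, where 11.9% of all genes were higher and 8.75% lower, so the count higher is at the background. After GC correction 0 were higher and 2 lower, where 3.88% and 3.98% of all genes were. The fatty acid transporter Cd36 rose from 129 ± 31.8 CPM (SD, n = 6) to 497 ± 138 (SD, n = 3), a log2 fold change of 1.94 (SE 0.38, adjusted p = 0.00185) that became 0.30 (adjusted p = 0.648) after correction. The adrenomedullin receptor gene Calcrl rose by 1.995 (SE 0.49, adjusted p = 0.00935), also lost with the correction at 0.36 (adjusted p = 0.662). The leukocyte adhesion molecule Selp was lower, at -2.07 (SE 0.52, adjusted p = 0.0106) and still called after it, at -1.89 (adjusted p = 0.0278). Cyyr1 was higher by 1.35 (SE 0.33, adjusted p = 0.00781), and 0.45 (adjusted p = 0.504) after correction. Against exercise, where 12.2% of all genes were higher and 8.34% lower, 4 were called higher and 5 lower, and 0 and 0 after correction. There Cd36 was at 1.49 (SE 0.38, adjusted p = 0.00998), Calcrl at 2.31 (SE 0.49, adjusted p = 0.00335) and Cyyr1 at 1.59 (SE 0.32, adjusted p = 0.00246).

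Among 30 tested genes of VEGF, angiopoietin, apelin and Notch signalling, 3 were called higher and 6 lower, again beside 11.9% and 8.75% of all genes, and 1 and 1 after GC correction, beside 3.88% and 3.98%. These last were the Notch ligands Jag1 and Dll4. Jag1 rose from 5.77 ± 0.778 CPM (SD, n = 6) to 13.0 ± 3.10 (SD, n = 3), at 1.17 (SE 0.18, adjusted p = 0.000407) and 1.09 (adjusted p = 0.00183) after correction. Dll4, the ligand of sprouting and arterial endothelium, fell from 7.39 ± 2.68 CPM (SD, n = 6) to 2.26 ± 0.654 (SD, n = 3), at -1.71 (SE 0.34, adjusted p = 0.00218) and -1.23 (adjusted p = 0.0135). The oxygen-regulated transcription factor Hif1a rose by 1.67 (SE 0.22, adjusted p = 0.000119), which became 0.52 (adjusted p = 0.109). Jag2, another Notch ligand, was lower, at -1.12 (SE 0.28, adjusted p = 0.00938), and -0.52 (adjusted p = 0.0938) after correction. Against exercise 3 were called higher and 7 lower, beside 12.2% and 8.34% of all genes. After correction 1 was higher and 2 lower, beside 4.10% and 3.89%. These were Jag1 at 1.31 (adjusted p = 0.000336), Dll4 at -0.96 (adjusted p = 0.043) and Jag2 at -0.67 (adjusted p = 0.0335).

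Of 34 further mural genes tested, 3 were called higher and 6 lower, and 0 and 0 after GC correction, beside the same shares of all genes. Mrtfa, a cofactor of serum response factor, fell by 1.19 on the log2 scale (SE 0.28, adjusted p = 0.00747), to 5.35 ± 0.581 CPM (SD, n = 3) from 12.2 ± 4.10 (SD, n = 6), with -0.66 (adjusted p = 0.125) after correction. The myosin light chain Myl9 fell by 1.26 (SE 0.33, adjusted p = 0.013), and was at -0.78 (adjusted p = 0.142) after it. The nitric oxide receptor subunit Gucy1a1 rose by 1.00 (SE 0.28, adjusted p = 0.0176), and was at 0.39 (adjusted p = 0.502) after it. Cox4i2, a respiratory subunit found in pericytes, fell by 1.36 (SE 0.40, adjusted p = 0.023), and was at -0.88 (adjusted p = 0.169) after it. Against exercise 2 were called higher and 3 lower, beside 12.2% and 8.34% of all genes. After correction 1 was called, Mrtfa, at -1.05 (adjusted p = 0.0175), where 7.99% of all genes were. Of 6 lymphatic genes 1 was called, near the 20.7% of all genes, and this was Mmrn1, higher by 1.81 (SE 0.40, adjusted p = 0.00464), with 0.81 (adjusted p = 0.258) after correction.

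Exercise against sedentary left these lists as it left the vessel genes. In edgeR 0 of 37 further endothelial, 0 of 30 signalling, 0 of 34 mural and 0 of 6 lymphatic genes were called. DESeq2 called 0 in each. At an unadjusted p under 0.05 there were 1, 2, 0 and 0, beside 3.70% of all genes. These were the adhesion molecule Selp at -0.83 (SE 0.39, adjusted p = 1), the Notch target Hes1 at 1.12 (SE 0.42, adjusted p = 1) and the platelet-derived growth factor gene Pdgfb at -0.60 (SE 0.22, adjusted p = 1).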

How the data were processed

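The authors deposited gene counts, 22798 gene symbols by 15 libraries in 1 table, with 0 columns left without a sample. The build was GRCm38, and the tools named were HISAT2 2.0.1, HTSeq 0.6.1 and Trimmomatic 0.30, per the submitters' processing notes. Per the labels' protocols RNA of a minimum integrity went into a NEBNext Ultra kit. Whether counting used strand is not given in these sources, so reads of a gene and an antisense neighbour cannot be told apart. Among values of 1 to 15, the share divisible by 4 was 32.1 to 33.6% in the libraries labelled CD47-KO and 41.7 to 50.2% in the rest, so a deposited count may not be 1 read, and why was not tested. No pair of libraries in a group was alike within counting noise (lowest chi-square per degree of freedom 78.1).

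Counts were filtered with filterByExpr, scaled with TMM factors and fitted with edgeR 4.0.16 (quasi-likelihood, robust) in R 4.3.3 over all 15 libraries, with a threshold of 0.05 after Benjamini-Hochberg adjustment. SE is the fold change over the root of its F statistic. For GC correction, a lowess curve (span 0.3) of each library's log2 CPM (prior count 2) less the gene mean, on GC content of the longest protein-coding transcript, entered the fit as an offset. Sets were tested on 12 libraries with group and set as terms, over the 15571 genes kept there. The main fits had group as their only term, so neither set nor number entered those values or their SE. Sedentary and exercise libraries of the same title number correlated at 0.273 to 0.539 in their deviations from the group means. The number was therefore tried as a block for exercise against sedentary. Libraries of the same set but another number correlated as well (median 0.366), and 2 of 6 exercise libraries correlated best with their own number. The number as a block changed no call in that comparison. For exercise, the sample descriptions carry other numbers than the titles.

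Alternatives were RLE factors, DESeq2 1.42.0, other filters, fewer groups, the block, each set of numbers alone, GC correction and leaving out libraries. The fits were tested on simulated data. The 34 genes, the lists, the tests and the rule for named genes (those called in a CD47-KO comparison, extremes of the rest, and up to 4 called genes of each list with the smallest p-values) were chosen with earlier results of these data known. Promoters came from RefSeq, and places and GC content from GENCODE on GRCm38.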

Additional observations from a re-analysis of the deposited data

Results flagged for a closer look

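In groups of 6 libraries, a gene was singled out where the highest or lowest library stood far from the other 5 by Dixon's 95% criterion. Of 68 such tests, 2 groups for each of the 34 genes, 11 met it. The criterion passes about 1 in 20 single tests by chance. Genes here share libraries and move together, so the count of 11 is no test of chance. All 11 came from 3 libraries and were high values. Sedentary library 6 was far above the rest for Emcn (28.8 CPM, others 7.33 to 9.50), Sox18 (39.9 CPM, others 5.76 to 12.4), Fabp4 (549.9 CPM, others 98.5 to 149), Gpihbp1 (101 CPM, others 27.4 to 50.3) and Rgs5 (160.1 CPM, others 55.3 to 89.2). Most of these are genes of capillaries, and the same library had 18.2% of its counts in mitochondrially encoded genes.

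Sedentary library 1 was far above the rest for the pericyte genes Pdgfrb (39.5 CPM, others 15.8 to 19.7), Cspg4 (24.1 CPM, others 3.10 to 9.34) and Notch3 (44.3 CPM, others 10.3 to 21.8). Its fibroblast markers summed to 621 CPM, while the next highest sedentary library had 220.3. Exercise library 1 was far above the rest for Tie1 (55.7 CPM, others 29.9 to 37.7), Robo4 (24.6 CPM, others 10.7 to 15.2) and Smtn (75.2 CPM, others 50.8 to 58.7). The part of these other features in the values was not tested.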

How the results depend on the processing

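For exercise against sedentary, 0 endothelial and angiogenic genes and 0 mural genes were called under all 23 alternatives. For the libraries labelled CD47-KO against sedentary, 4 endothelial and angiogenic genes were called in the main fit. The count became 7 with DESeq2, 9 with the replicate number as a block, 10 with numbers 1 to 3 alone and 1 with GC correction. With GC correction and the block it was again 4, but these were not the same genes: all were lower, and Angpt1 was no longer called. Over all genes, 3719 calls became 4790, 4842, 5588, 1414 and 2294 under these settings. The 6 mural calls became 2 with GC correction and 3 with GC correction and the replicate block. Against exercise, the 5 endothelial and angiogenic calls became 3 without a filter on low counts, 13 with the replicate block, 10 with numbers 1 to 3 alone and 1 with GC correction. With GC correction and the block the count was again 5 (1 higher, 4 lower). These were not the same genes, as Angpt1 and Vegfb were no longer called. Over all genes, 3698 calls became 3352, 4980, 5472, 1436 and 2448. The 4 mural calls became 2 (1 higher, 1 lower) with RLE factors, 2 without the filter, 7 with the replicate block, 1 with GC correction and 1 with both. For the libraries labelled CD47-KO the numbers do not pair: their correlations were -0.192 to 0.208 with sedentary and -0.0925 to 0.309 with exercise libraries.

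Leaving out each library in turn gave 2 to 7 endothelial and angiogenic calls and 2 to 7 mural calls against sedentary, and 2 to 5 and 2 to 4 against exercise. The fewest, 2, came without CD47-KO library 3 in each. Against sedentary, endothelial and angiogenic calls also reached 7 without sedentary library 4, and mural calls were 3 without CD47-KO library 1. Against exercise, endothelial and angiogenic calls were 3 without exercise library 4, 5 or 6 or CD47-KO library 1 or 2, and mural calls were 2 without exercise library 1, 2, 4, 5 or 6 or CD47-KO library 1 or 2. The 12 calls between sets of numbers became 1 within sedentary libraries alone (225 genes in all), 8 within exercise libraries alone (3481 genes in all) and 8 to 15 with a library left out. Against numbers 4 to 6 alone, Flt1 turned to 0.79 and Ptprb to 0.59 (sedentary) and 0.66 (exercise). Vegfb against exercise turned to 0.0182 with the replicate block and GC correction. The cause of these changes was not tested. Aplnr and Smtn were called in both CD47-KO comparisons under every alternative run, and Angpt1 and Rgs5 under all but the 2 with GC correction. Of the genes called, Aplnr had the fewest counts in the libraries labelled CD47-KO, 24 to 84.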
